A study of Mus musculus with 10 samples.

Results

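The genes described here encode the matrix ligands and receptor chains of integrin α8β1 and the Fraser complex of basement membrane proteins. They are the ligands *Egfl6* and *Npnt* (nephronectin), the integrin chains *Itga8*, *Itgb1* and *Itga3*, and the Fraser complex genes *Fras1*, *Frem1*, *Frem2* and *Grip1*. Members were taken by gene symbol, and all 9 were found, each on a single entry, among the 35663 entries of the table. They were chosen by their role in this ligand and receptor system, at a time when their FPKM in these same libraries and the differences between the 3 groups were already known. The levels and differences of the 9 genes are therefore given as a description, and no p-value of a single member is printed. Where members are called or counted at p thresholds, nothing is read from the counts.

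RNA was measured by RNA-seq of whole kidneys from E13.5 mouse embryos of the C57/b6 strain, in 3 groups, with 3 *Ntn1*SPKO libraries, 3 of the *Foxd1*GC control and 4 of the wild type. Wild-type kidneys are labelled Wild type, and no source used here says more of their alleles. *Foxd1*GC control kidneys (labelled Foxd1-Cre) carry a Cre knocked into *Foxd1*, which is active in stromal progenitors and takes the place of a *Foxd1* copy. *Ntn1*SPKO kidneys (labelled Foxd1-Cre; Ntn1c/c by source and Foxd1-Cre; Ntn1/cc by genotype) carry the same *Foxd1* allele and floxed *Ntn1*, so that *Ntn1* is lost from the stroma and its derivatives. Both of these groups thus share the altered *Foxd1* copy, and cells outside the *Foxd1* lineage keep *Ntn1*. No source used here says whether a library holds kidneys of a single embryo or of several, or which were littermates, so p-values measure only the spread between these libraries, which may be partly technical.

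In the developing kidney, the ureteric bud lays down nephronectin in its basement membrane, and the surrounding metanephric mesenchyme meets it with integrin α8β1. This contact is known to keep *Gdnf*, the signal for bud outgrowth, switched on, and mice without *Itga8* or *Npnt* often form no kidney. Fras1, Frem1 and Frem2 assemble into a complex at the outer face of epithelial basement membranes, the adaptor Grip1 carries Fras1 and Frem2 to the cell surface, and the complex helps to hold nephronectin in place. Egfl6 is a relative of nephronectin with EGF-like repeats and a MAM domain. Integrin α3β1 is the laminin receptor of the bud epithelium and of podocytes.

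Ligands of integrin α8β1 are bound through the sequence arginine-glycine-aspartate (RGD). The codons for this site were located in the longest coding sequence of each gene in GENCODE M21 (GRCm38), and those of *Egfl6*, *Npnt* and *Frem1*, whose proteins are known to bind α8β1 in this way, are shown because they are what these ligands share beyond the gene list. Capitals mark the RGD codons, and 9 bases stand on either side.
Egfl6: cgaaccctcCGAGGGGATgtattctcc
Npnt: cagaaacccAGAGGAGATgtgttcatt
Frem1: gaggggcctCGTGGAGATcagccacac

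The *Egfl6* site lies at chrX:166538421-166538429 on the minus strand, in exon 8, as codons 360 to 362 of 550. The *Npnt* site is at chr3:132904665-132904673, also on the minus strand, in exon 10, as codons 430 to 432 of 609. In *Frem1* the codons are near the start of the coding sequence, in exon 3 at chr4:83013842-83013850 (minus strand), as codons 205 to 207 of 2191. *Fras1* and *Itga8* also hold an RGD triplet, and *Itgb1*, *Itga3*, *Frem2* and *Grip1* hold none in this frame. Of 21168 coding genes read in the same way, 7.30% hold an RGD triplet, so a match is a description of the sequence and not of binding.

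The genes lie on 8 chromosomes of GRCm38. *Egfl6* is X-linked (166523007 to 166585720) and *Npnt* lies on chromosome 3 (132881745 to 132950291), as does *Frem2* (53513938 to 53657355). *Itga8* is on chromosome 2 (12106632 to 12301922), *Itgb1* on chromosome 8 (128685654 to 128733200) and *Itga3* on chromosome 11 (95044474 to 95076801). *Fras1* is on chromosome 5 (96373955 to 96784728), *Frem1* on chromosome 4 (82897920 to 83052339) and *Grip1* on chromosome 10 (119453830 to 120087261). None of the 31-base words of their longest coding sequences occurs in a transcript of another gene, so no member shares such words with a near-identical copy.

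The deposited values are FPKM, fragment numbers scaled by gene length and by library, so that levels can be compared between genes. The smallest values put the depth of a library, roughly, between 26.9 and 30.9 M fragments (M, 1e6), at which the member value that rests on the fewest fragments, *Egfl6* in *Ntn1*SPKO replicate 2, stands for about 235 of them and carries a counting error of about 6.53%. *Six2*, *Foxd1*, *Wnt9b* and *Pecam1*, which mark nephron progenitors, stroma, ureteric epithelium and endothelium, were above 0 in all 10 libraries. *Ntn1*, the deleted gene, was at 10.7 to 16.3 FPKM in *Ntn1*SPKO, 24.2 to 51.4 FPKM in control and 27.1 to 46.3 FPKM in wild-type libraries. *Foxd1*GC control replicate 3 stood apart from the other libraries. All 8 ureteric bud markers were lowest in it, with a sum of 67.7 FPKM against 183 to 233 FPKM in the other libraries, and all 10 skeletal muscle markers were highest in it, with a sum of 232 FPKM against 9.89 to 52.7 FPKM. Wild-type replicate 3 also differed as a whole, with an FPKM sum over all entries of 1002638 against 795829 to 874966 in the other libraries. The matrix genes *Col4a1*, *Col4a2*, *Nid1*, *Nid2*, *Hspg2* and *Agrn* were lowest in it. *Lama5*, *Lamc1* and *Col18a1* were lowest in control replicate 3 and *Lamb1* in an *Ntn1*SPKO library. The cause was not tested. The sum of 4 Y-linked genes was 88.6 to 98.1 FPKM in all 3 *Ntn1*SPKO libraries, *Foxd1*GC control replicate 2 and wild-type replicate 3, and at most 1.02 FPKM in the other 5 libraries, so embryo sex, read from these transcripts, was not balanced between the groups.

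*Egfl6* was the member with the largest differences between groups. Its level was 14.6, 12.5, 15.7 and 17.7 FPKM in wild-type replicates 1 to 4. In *Foxd1*GC control replicates 1 to 3 it was 16.3, 7.68 and 30.7 FPKM, and in *Ntn1*SPKO replicates 1 to 3 it was 5.55, 4.60 and 5.84 FPKM. Every *Ntn1*SPKO library thus lay below every library of both other groups, while control libraries spread on both sides of the wild-type range. *Egfl6* averaged 5.33 ± 0.649 FPKM in the 3 *Ntn1*SPKO libraries, 18.2 ± 11.6 FPKM in the 3 controls and 15.1 ± 2.16 FPKM in the 4 wild-type libraries (mean ± SD here and for the genes that follow). The mean was 3.42-fold higher in control and 2.84-fold higher in wild-type than in *Ntn1*SPKO kidneys.

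Differences were fitted with limma on log2(FPKM + 0.1) over all genes that averaged 0.5 FPKM or more, and are given as log2 differences with their standard errors. Calls needed a 2-fold change and a Benjamini-Hochberg adjusted p below 0.1. For *Egfl6* the log2 difference was −1.55 (SE 0.47) against *Foxd1*GC control and −1.48 (SE 0.14) against wild-type kidneys. Both comparisons use the same *Ntn1*SPKO libraries. Against controls, 218 of 14550 genes tested had a more negative difference, and against wild-type kidneys 136 of 14432 did. Between *Foxd1*GC control and wild-type kidneys the difference was 0.06 (SE 0.40). Its sign turned with a single library, to −0.42 without control replicate 3, and without control replicate 2 it was 0.57.

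Single control libraries set the size of the *Egfl6* difference against controls. It was −1.07 without *Foxd1*GC control replicate 3, the library with the high muscle markers, and −2.06 without replicate 2, the control with Y-linked transcripts. With embryo sex as a covariate it was −0.53. All 3 *Ntn1*SPKO libraries held Y-linked transcripts, and in the other groups only control replicate 2 and wild-type replicate 3 did. With this covariate, here and for the genes below, *Ntn1*SPKO libraries are therefore compared with that single library of the other group. Among libraries with Y-linked transcripts, *Foxd1*GC control replicate 2 held 7.68 FPKM and wild-type replicate 3 held 15.7 FPKM, both above the 3 *Ntn1*SPKO libraries. Against wild-type kidneys the difference stayed between −1.57 and −1.34 under every alternative tried. With embryo sex as a covariate it was −1.55, which is the difference from wild-type replicate 3 alone. Markers of tissues outside the kidney were read beside *Egfl6*, and only some of these tissues had lower sums in *Ntn1*SPKO kidneys. All 10 skeletal muscle markers had a lower mean in *Ntn1*SPKO than in either other group, with sums of 9.89 to 24.2 FPKM in *Ntn1*SPKO, 19.1 to 232 FPKM in control and 28.6 to 52.7 FPKM in wild-type libraries, and a single marker of the 10 was listed at 0 in every *Ntn1*SPKO library. All 5 liver markers also had a lower mean in *Ntn1*SPKO than in both other groups, with sums of 3.62 to 12.9 FPKM in *Ntn1*SPKO, 11.5 to 28.4 FPKM in control and 6.59 to 21.4 FPKM in wild-type libraries. Of 5 skin epithelium markers, 5 had a lower mean than in control and 4 than in wild-type kidneys (sums of 0.754 to 1.47, 2.66 to 5.45 and 1.32 to 2.43 FPKM in *Ntn1*SPKO, control and wild-type libraries), and of 6 neural markers 5 and 4 did (8.58 to 9.68, 8.63 to 11.3 and 6.38 to 9.81 FPKM). The neural sums of *Ntn1*SPKO libraries lay inside the wild-type range. Of 6 cartilage markers, 4 had a lower mean than in control and 3 than in wild-type kidneys. Their sums were 36.0 to 38.3, 26.6 to 39.9 and 28.1 to 37.1 FPKM in *Ntn1*SPKO, control and wild-type libraries, with the lowest in control replicate 3. In a bulk sample, fewer cells of a type and less RNA per cell cannot be told apart. The part that any of these cells have in the *Egfl6* level was not tested.

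**Figure D1:**
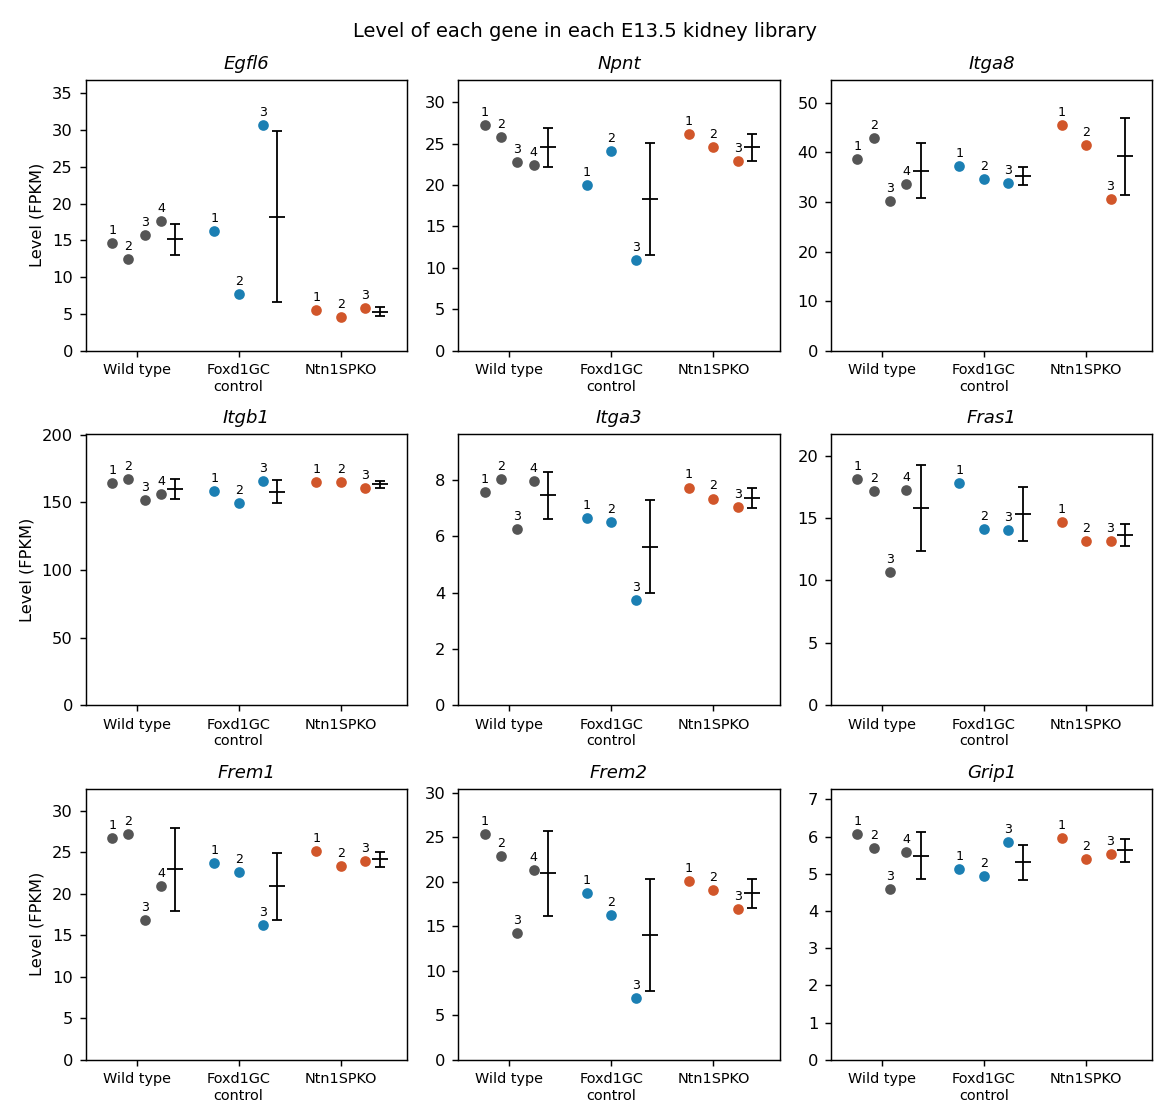
Level of each of the 9 genes (FPKM, linear axis from 0) in the 10 libraries by group, with replicate numbers beside the points and the mean ± SD as a bar to the right of each group. The 3 Ntn1SPKO libraries lie below all others for Egfl6, and Foxd1GC control replicate 3 holds the lowest value of Npnt, Itga3, Frem1 and Frem2.

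*Npnt*, which encodes nephronectin, was at 27.3, 25.8, 22.8 and 22.4 FPKM in wild-type replicates 1 to 4. Control replicates 1 to 3 were at 20.0, 24.2 and 10.9 FPKM, and *Ntn1*SPKO replicates at 26.2, 24.6 and 22.9 FPKM. *Ntn1*SPKO and wild-type libraries covered much the same range, and only control replicate 3 was far below the rest. *Npnt* averaged 24.5 ± 1.64 FPKM in *Ntn1*SPKO (n = 3), 24.6 ± 2.34 FPKM in wild-type (n = 4) and 18.3 ± 6.77 FPKM in control libraries (n = 3). Its log2 difference between *Ntn1*SPKO and wild-type kidneys was 0.00 (SE 0.09, 95% interval −0.21 to 0.21). Against controls it was 0.49 (SE 0.28), 0.16 without control replicate 3, 0.73 without control replicate 2 and 0.02 with embryo sex as a covariate.

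*Itga8*, which averaged 39.2 ± 7.78 FPKM in *Ntn1*SPKO, 35.2 ± 1.84 FPKM in control and 36.4 ± 5.60 FPKM in wild-type libraries, encodes the receptor chain that the metanephric mesenchyme presents to these ligands. It was at 38.6, 43.0, 30.2 and 33.7 FPKM in wild-type, 37.3, 34.6 and 33.8 FPKM in control and 45.6, 41.5 and 30.5 FPKM in *Ntn1*SPKO libraries, each in replicate order. The groups overlapped, and *Ntn1*SPKO held both the highest library and the one next to the lowest. The log2 difference was 0.14 (SE 0.15) against controls and 0.10 (SE 0.17) against wild-type kidneys. Leaving out *Ntn1*SPKO replicate 1 gave 0.02 and −0.02, leaving out replicate 3 gave 0.31 and 0.27, and leaving out wild-type replicate 3 gave 0.02 against wild-type kidneys, so that the direction against wild-type kidneys turned with a single library. With embryo sex as a covariate the differences were 0.16 and 0.36, the latter against wild-type replicate 3 alone. The 95% interval against controls ran from −0.23 to 0.50. The markers of nephron progenitors, cells known to carry α8, had sums of 339 to 403 FPKM in *Ntn1*SPKO, 329 to 435 FPKM in control and 304 to 390 FPKM in wild-type libraries.

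*Itgb1*, the β1 chain that pairs with α8, α3 and many other α chains, was the most abundant member and varied least. Its values ran from 151.7 to 166.9 FPKM in wild-type, from 149.5 to 165.9 FPKM in control and from 160.2 to 164.6 FPKM in *Ntn1*SPKO libraries, and its coefficient of variation over all 10 libraries was 3.85%. The log2 difference was 0.05 (SE 0.06) against controls and 0.03 (SE 0.06) against wild-type kidneys, and 0.13 and 0.10 with embryo sex as a covariate.

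*Itga3*, the α3 chain, was at 7.57, 8.03, 6.25 and 7.98 FPKM in wild-type, 6.65, 6.52 and 3.74 FPKM in control and 7.74, 7.35 and 7.04 FPKM in *Ntn1*SPKO replicates. It averaged 7.37 ± 0.352 FPKM in *Ntn1*SPKO, 5.64 ± 1.64 FPKM in control and 7.46 ± 0.828 FPKM in wild-type libraries. All 3 *Ntn1*SPKO libraries were above all 3 controls, but inside the wild-type range. The log2 difference against controls was 0.43 (SE 0.23), 0.16 without control replicate 3 and 0.17 with embryo sex as a covariate. Against wild-type kidneys it was −0.01 (SE 0.10), and 0.23 with that covariate.

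Of the Fraser complex genes, *Fras1* encodes a large transmembrane matrix protein. Its level was 18.1, 17.2, 10.7 and 17.2 FPKM in wild-type, 17.8, 14.1 and 14.0 FPKM in control and 14.7, 13.2 and 13.1 FPKM in *Ntn1*SPKO replicates. *Ntn1*SPKO libraries lay toward the low end, inside the wild-type range that the low replicate 3 stretched down. *Fras1* averaged 13.7 ± 0.883 FPKM in *Ntn1*SPKO, 15.3 ± 2.15 FPKM in control and 15.8 ± 3.44 FPKM in wild-type libraries. The log2 difference was −0.16 (SE 0.12) against controls and −0.18 (SE 0.18) against wild-type kidneys. The former was −0.04 without control replicate 1 and −0.05 with embryo sex as a covariate. The latter was −0.36 without wild-type replicate 3. It was 0.35 with embryo sex as a covariate, which compares *Ntn1*SPKO libraries with that same low replicate alone.

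*Frem1*, a secreted member of the complex, was at 26.7, 27.2, 16.8 and 21.0 FPKM in wild-type, 23.7, 22.6 and 16.3 FPKM in control and 25.2, 23.3 and 23.9 FPKM in *Ntn1*SPKO replicates. *Ntn1*SPKO libraries lay inside the wild-type range. *Frem2*, a transmembrane member, was at 25.4, 22.9, 14.2 and 21.3 FPKM in wild-type, 18.7, 16.3 and 6.88 FPKM in control and 20.1, 19.1 and 16.9 FPKM in *Ntn1*SPKO replicates. Here too the groups overlapped, and control replicate 3 was far below every other library. Log2 differences against controls were 0.23 (SE 0.15) for *Frem1* and 0.54 (SE 0.36) for *Frem2*, 0.06 and 0.09 without control replicate 3, and 0.09 and 0.19 with embryo sex as a covariate. Against wild-type kidneys they were 0.10 (SE 0.17) and −0.13 (SE 0.19), and −0.04 and −0.31 without wild-type replicate 3. With embryo sex as a covariate, which compares *Ntn1*SPKO libraries with that replicate alone, they were 0.52 and 0.39. Means were 24.1 ± 0.931, 20.9 ± 4.03 and 22.9 ± 4.98 FPKM for *Frem1* and 18.7 ± 1.64, 14.0 ± 6.26 and 20.9 ± 4.79 FPKM for *Frem2* in *Ntn1*SPKO, control and wild-type libraries.

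*Grip1*, the PDZ-domain adaptor, was at 4.58 to 6.07 FPKM in wild-type, 4.94 to 5.85 FPKM in control and 5.39 to 5.97 FPKM in *Ntn1*SPKO libraries. It was the least abundant member in wild-type kidneys. Log2 differences were 0.09 (SE 0.11) against controls and 0.04 (SE 0.11) against wild-type kidneys, and 0.18 and 0.29 with embryo sex as a covariate. Without wild-type replicate 3 the difference against wild-type kidneys was −0.04, and with the covariate it rests on that replicate alone. In control replicate 3, where *Frem2* was lowest, *Grip1* was at 5.85 FPKM, the highest of the controls.

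Between *Foxd1*GC control and wild-type kidneys, the log2 differences of *Npnt* (−0.49, SE 0.25), *Itga3* (−0.44, SE 0.21) and *Frem2* (−0.67, SE 0.35) were the most negative of the 9 genes. Without control replicate 3 they were −0.16, −0.17 and −0.23. The differences of *Itga8*, *Itgb1*, *Fras1*, *Frem1* and *Grip1* lay between −0.13 and −0.02. In this comparison the 95% interval held 0 for each of the 9 genes.

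**Figure D2:**
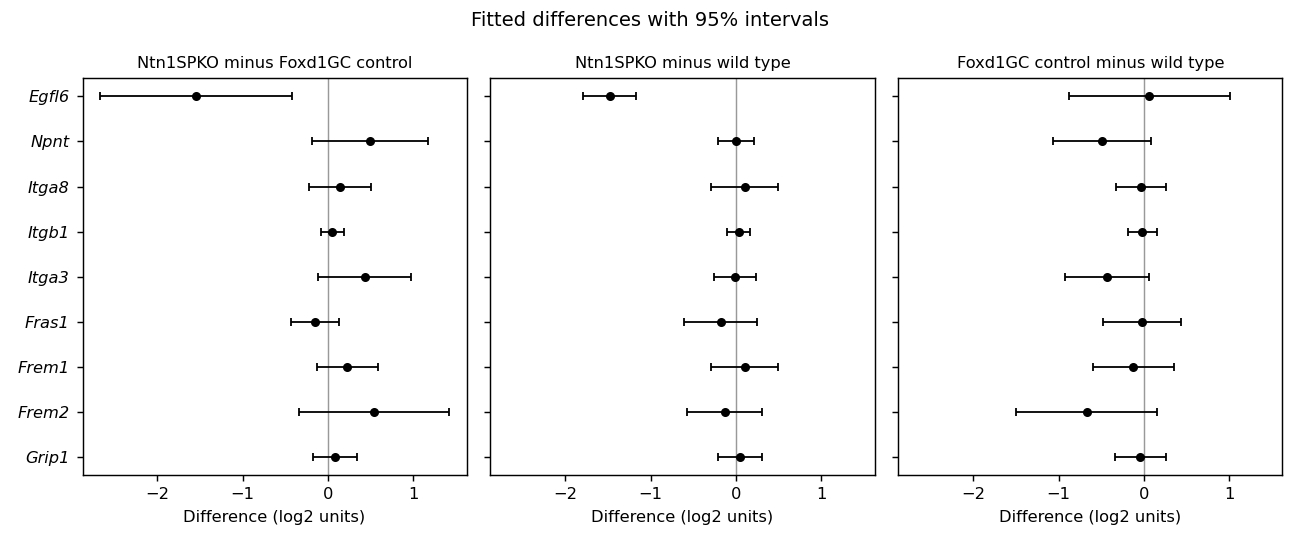
Fitted difference (log2 units, x axis) of each gene in the 3 comparisons of groups, as points with 95% intervals that are not adjusted for the number of genes. Egfl6 lies at −1.55 and −1.48 in both comparisons of Ntn1SPKO kidneys and at 0.06 between the other groups, while the other 8 genes lie between −0.67 and 0.54.

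In the comparison of *Ntn1*SPKO with *Foxd1*GC control kidneys, limma called 0 of the 9 members, beside 0.0550% of all genes tested. At an unadjusted p under 0.05 the count was 1 member, *Egfl6*, beside 10.7% of all genes, and at an unadjusted p under 0.1 with a 2-fold change it was again *Egfl6*, beside 2.30%. Libraries of the 2 groups were fully apart for 2 members, beside 19.9% of all genes. These were *Egfl6*, with lower values in *Ntn1*SPKO (8.91% of all genes), and *Itga3*, with higher ones (11.0%). The members had a median log2 difference of 0.14 and all genes of 0.01. Against wild-type kidneys 1 member was called, *Egfl6*, beside 0.0485% of all genes, 1 member had an unadjusted p under 0.05, beside 5.76%, and the libraries were fully apart for 1, beside 7.10%. The *Egfl6* call was lost with all 10 libraries in one fit and without *Ntn1*SPKO replicate 2. In the comparison of control with wild-type kidneys limma called 0 members, beside 0.00685% of all genes, 0 had an unadjusted p under 0.05, beside 7.06%, and 0 had libraries fully apart, beside 8.09%. Since results of these comparisons were known when the genes were listed, nothing is read from the counts.

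By level in wild-type kidneys, the order was *Itgb1*, *Itga8*, *Npnt*, *Frem1*, *Frem2*, *Fras1*, *Egfl6*, *Itga3* and *Grip1*. *Itgb1* exceeded 95.2% of the genes that averaged 0.5 FPKM or more, *Itga8* 77.1%, *Egfl6* 54.8% and *Grip1* 32.1%. The ranges of *Itgb1* and *Itga8* stood clear of each other and of the rest, as did those of *Itga3* and *Grip1*. Neighbours from *Npnt* to *Egfl6* had overlapping ranges. In *Ntn1*SPKO kidneys *Egfl6*, at 5.33 FPKM on average, stood last, with a range of 4.60 to 5.84 FPKM that overlapped that of *Grip1* (5.39 to 5.97 FPKM).

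The libraries ordered the members in different ways. Of the 9 genes, 4 (*Npnt*, *Itga3*, *Frem1* and *Frem2*) were lowest and *Egfl6* was highest in the third *Foxd1*GC control library. The wild-type replicate 3 was lowest for 3 of them, *Itga8*, *Fras1* and *Grip1*. The highest value of a member was 6.67 times the lowest for *Egfl6*, 3.69 times for *Frem2*, 2.50 times for *Npnt* and 2.15 times for *Itga3*, and at most 1.70 times for the other 5. The low *Npnt*, *Itga3* and *Frem2* of control replicate 3 stood beside its low ureteric bud markers, of which 0 of 8 were at 0 in any library, and the part of this tissue in those levels was not tested.

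**Figure D3:**
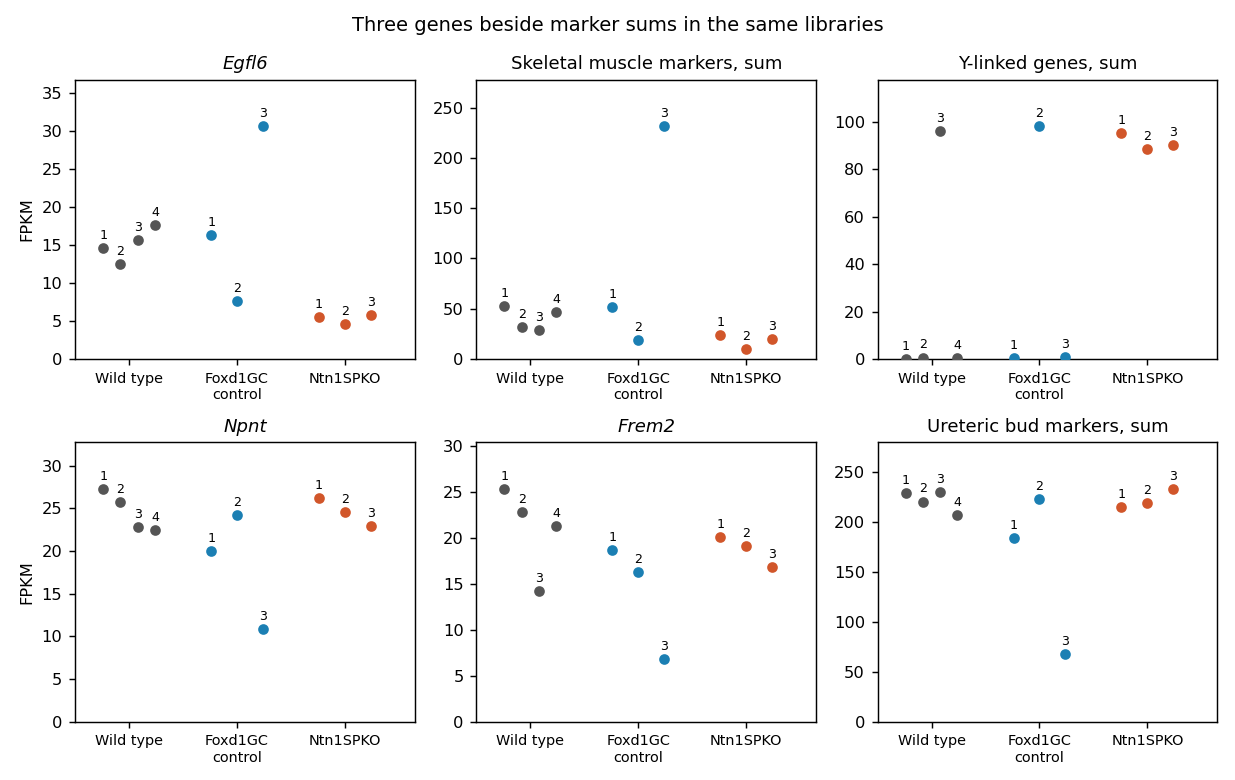
Egfl6, Npnt and Frem2 (FPKM, y axes from 0) beside the summed FPKM of 10 skeletal muscle markers, 4 Y-linked genes and 8 ureteric bud markers in the same libraries, with replicate numbers beside the points. Foxd1GC control replicate 3 has the highest Egfl6 and muscle sum and the lowest Npnt, Frem2 and ureteric bud sum, and all 3 Ntn1SPKO libraries hold Y-linked transcripts.

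Genes with the most similar pattern were sought by Pearson correlation over the 10 libraries, on log2(FPKM + 0.1), among 13134 genes that are no members and no predicted genes. Groups, embryo sex and the composition of a library are shared by all genes, so the coefficients are descriptions. For *Egfl6* the closest were *Fgf18* (r = 0.98, Spearman rho = 0.96), *Qprt* (r = 0.97, rho = 0.87) and *Grin2a* (r = 0.97, rho = 0.96). *Fgf18*, a fibroblast growth factor, averaged 3.30 FPKM in *Ntn1*SPKO, 8.68 FPKM in control and 7.27 FPKM in wild-type kidneys. For *Npnt* they were *Aldh5a1* (r = 0.99, rho = 0.98), *Fzd6* (r = 0.99, rho = 0.85) and *Dach1* (r = 0.99, rho = 0.94), and without the 2 libraries farthest from the median r was 0.97, 0.78 and 0.87. For *Itga8* they were *Spin1* (r = 0.94, rho = 0.93), *Rfx3* (r = 0.92, rho = 0.90) and *Mindy2* (r = 0.92, rho = 0.84).

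Other genes of the same adhesion system were read from 7 lists with 54 genes, none of them members, of which 48 passed the filter on low values. Limma called 0 of these 48 in each of the 3 comparisons. At an unadjusted p under 0.05, 1 gene was higher (*Fermt2*) and 3 were lower (*Itgb8*, *Cd151* and *Lamb1*) in *Ntn1*SPKO than in control kidneys, 2 were higher (*Parvb* and *Ret*) and 2 lower (*Spp1* and *Itgb8*) than in wild-type kidneys, and 1 was higher in control than in wild-type kidneys (*Lamb1*), where 10.7%, 5.76% and 7.06% of all genes passed in either direction. *Fermt2*, *Itgb8* and *Parvb* are named after their values were seen. Libraries of *Ntn1*SPKO and control kidneys were fully apart for 3 of the 48 genes with higher and 4 with lower values, beside 11.0% and 8.91% of all genes. From wild-type kidneys 2 were apart with higher and 2 with lower values, beside 7.10% in either direction. The lowest adjusted p against controls was 0.447 by limma. The median log2 difference of the 48 genes against controls was −0.03, beside 0.01 for all genes.

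Of 5 other proteins that α8β1 can bind, 4 were tested. All 4 had a lower mean on the log2 scale in *Ntn1*SPKO than in control kidneys (log2 differences −1.48 to −0.01), without a call. Against wild-type kidneys 2 were higher and 2 lower, and all 4 were higher in control than in wild-type kidneys. Osteopontin (*Spp1*) was at 0.263, 0.377 and 0.356 FPKM in *Ntn1*SPKO, 2.50, 0.282 and 1.62 FPKM in control and 1.56, 0.58, 1.13 and 1.04 FPKM in wild-type replicates. *Ntn1*SPKO libraries were below all wild-type libraries, and control replicate 2 lay within the *Ntn1*SPKO range. The log2 difference of *Spp1* was −1.48 (SE 0.73, limma adjusted p = 0.45) against controls and −1.39 (SE 0.34, adjusted p = 0.41) against wild-type kidneys. Tenascin C (*Tnc*) had a log2 difference of −0.53 (SE 0.41) against controls and 0.15 (SE 0.13) against wild-type kidneys, and its control values of 19.1, 8.65 and 29.1 FPKM spanned the *Ntn1*SPKO values of 10.7 to 12.8 FPKM. Without control replicate 3 the difference against controls was −0.14. Fibronectin (*Fn1*), at 96.0 FPKM on average in *Ntn1*SPKO and 125 FPKM in control kidneys, had a log2 difference of −0.34 (SE 0.20). Its control replicate 2, at 87.0 FPKM, lay below every *Ntn1*SPKO library (92.8 to 97.8 FPKM).

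All 7 other RGD-binding integrin chains were tested, with 6 lower and 1 higher mean in *Ntn1*SPKO than in control kidneys and 0 called by limma. The platelet chains *Itga2b* (log2 difference −0.85, SE 0.37) and *Itgb3* (−0.59, SE 0.29) differed most. Their differences were −0.38 (SE 0.50) and −0.05 (SE 0.15) against wild-type kidneys. For *Itga2b* the controls were at 3.42, 3.59 and 3.58 FPKM and the highest *Ntn1*SPKO library reached 3.45 FPKM, and for *Itgb3* control replicate 2, at 1.38 FPKM, lay within the *Ntn1*SPKO range of 1.30 to 1.51 FPKM. *Itgb8* was lower in each *Ntn1*SPKO library (1.38, 1.45 and 1.39 FPKM) than in all control (1.62 to 2.33 FPKM) and wild-type libraries (1.84 to 2.81 FPKM), with log2 differences of −0.47 (SE 0.19, adjusted p = 0.447 by limma) and −0.54 (SE 0.18, adjusted p = 0.712). Libraries were fully apart from controls for 19.9% of all genes and from wild-type kidneys for 7.10%, in either direction.

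Among the other α chains, *Itgb4* and *Cd151*, the tetraspanin partner of α3β1, 7 of 10 genes were tested, and 6 had a lower and 1 a higher mean in *Ntn1*SPKO than in control kidneys, again with 0 calls. *Itgb4* had a log2 difference of −0.50 (SE 0.46) and *Cd151* of −0.32 (SE 0.13, limma adjusted p = 0.447). Their differences were −0.42 (SE 0.31) and −0.04 (SE 0.13) against wild-type kidneys. Of the relatives of the Fraser complex, *Frem3* and *Grip2* did not pass the filter on low values, while *Vwa2*, whose protein AMACO binds the complex, had a log2 difference of 0.62 (SE 0.46) and hemicentin 1 (*Hmcn1*) of 0.10 (SE 0.22). *Vwa2* was at 1.12 FPKM in control replicate 3 and at 3.12 to 4.47 FPKM in every other library, which is the same low library as for *Frem2*. Without that library the differences of *Vwa2* and *Hmcn1* were 0.08 and 0.03, and *Itgb4* did not pass the filter on low values.

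In the cytoplasm, 14 of 14 listed partners of integrins were tested, mostly adaptors between integrins and actin but also the kinesin *Kif26b*. On the log2 scale 7 had a higher and 7 a lower mean in *Ntn1*SPKO than in control kidneys. *Lims2* had the largest log2 difference (1.53, SE 1.22), which rested on *Ntn1*SPKO replicate 3 at 12.8 FPKM against 0.414 and 0.801 FPKM in the other *Ntn1*SPKO libraries. Wild-type libraries were split as widely, from 0.62 to 11.7 FPKM. Kindlin 3 (*Fermt3*), the blood cell kindlin, had a log2 difference of −0.41 (SE 0.32), and −0.20 without control replicate 3. Its difference against wild-type kidneys was −0.10 (SE 0.19). Talin 1 (*Tln1*), with a log2 difference of −0.09 (SE 0.09), and integrin-linked kinase (*Ilk*), with −0.10 (SE 0.11), differed little.

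The 4 bud outgrowth genes that lie downstream of α8β1 in the textbook pathway all had a higher mean in *Ntn1*SPKO than in control kidneys, with 0 calls. *Ret*, the receptor on the ureteric bud tip, was at 18.5, 20.9 and 19.8 FPKM in *Ntn1*SPKO, 16.0, 16.1 and 4.09 FPKM in control and 16.0, 16.2, 14.1 and 17.2 FPKM in wild-type replicates. Each *Ntn1*SPKO library was above all others. Of all genes, 19.9% had libraries fully apart from controls and 7.10% from wild-type kidneys, in either direction. The log2 difference of *Ret* was 0.94 (SE 0.52, limma adjusted p = 0.466) against controls, where control replicate 3 was again the low library, 0.29 (SE 0.08) without that library, and 0.31 (SE 0.09, adjusted p = 0.503) against wild-type kidneys. Its co-receptor *Gfra1* had a log2 difference of 0.37 (SE 0.19), or 0.16 without that library, and the ligand *Gdnf* of 0.11 (SE 0.09) with means of 23.7 FPKM in *Ntn1*SPKO and 21.8 FPKM in control kidneys.

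Of the 10 basement membrane core genes, 6 had a higher and 4 a lower mean in *Ntn1*SPKO than in control kidneys. The laminin chain *Lamb1* was at 1.59, 2.53 and 2.52 FPKM in *Ntn1*SPKO and 2.78, 3.69 and 4.40 FPKM in control replicates, a log2 difference of −0.69 (SE 0.25, limma adjusted p = 0.447), while wild-type libraries at 1.80 to 2.60 FPKM lay with *Ntn1*SPKO. *Lama5*, a ligand chain of α3β1, had a log2 difference of 0.42 (SE 0.31) and was lowest in control replicate 3 at 3.90 FPKM, without which the difference was 0.04.

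**Figure D4:**
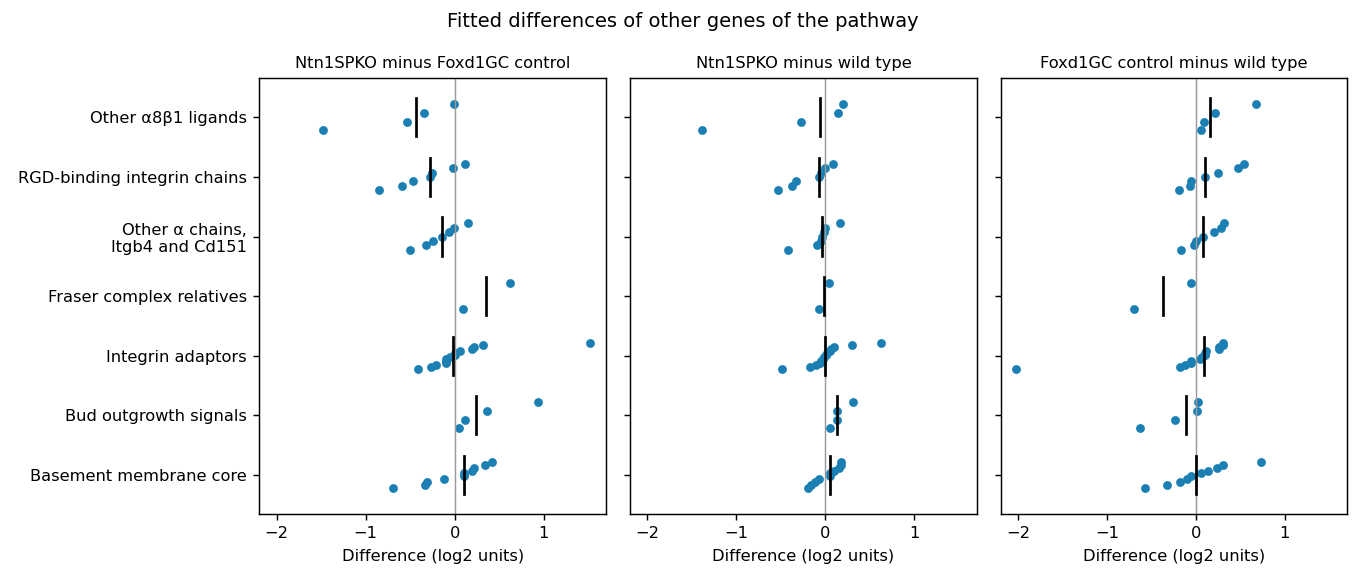
Fitted differences (log2 units, x axis) of the 48 tested genes of the 7 other lists in the 3 comparisons of groups, with a point for each gene and a bar at the median of each list. The medians lie between −0.43 and 0.36, and 0 of the 48 genes were called by limma in any comparison.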

How the data were processed

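RNA from whole kidneys was sequenced by the study. According to its methods, the authors quantified reads with Salmon against coding sequences of Ensembl GRCm38 and imported them to genes with tximport. The processing notes also name bcl2fastq 2.17.1.14. How FPKM were then made is not given in the sources used here. The deposited values are FPKM for 10 libraries and already carry median-of-ratios scaling (16550 genes above 0 in every library gave equal factors). FPKM are not counts, so counting error is only approximate. Depth was estimated from the lowest values of genes with a single coding transcript of at least 1500 bases. Differences were fitted with limma 3.58.1 in R 4.3.3 on log2(FPKM + 0.1), with eBayes and an intensity trend, for genes averaging 0.5 FPKM or more in the libraries compared, and Benjamini-Hochberg adjustment over all of them. Members and lists were chosen with earlier results of these data known. Named genes were all members, called genes of a list, the 2 largest differences of each list, and the 3 closest genes to *Egfl6*, *Npnt* and *Itga8*. *Fn1*, *Itgb8*, *Fermt2*, *Parvb*, *Tln1*, *Ilk*, *Kif26b*, *Gdnf*, *Frem3* and *Grip2* were named besides, after their values were seen. Alternatives changed the pseudocount, filter, scaling, eBayes settings, libraries in the fit, replicate block, embryo sex and thresholds. For named genes of the other lists, leaving out control replicate 3 was chosen after seeing the data.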

Additional observations from a re-analysis of the deposited data

Results flagged for a closer look

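In wild-type kidneys, *Fras1* in replicate 3 lay far below the other 3 libraries, at 10.7 FPKM where the nearest was at 17.2 FPKM and the highest at 18.1 FPKM. Of 9 genes examined for such a gap in the group of 4, this was the only one. About 1 group in 20 shows such a gap by chance, but the 9 genes come from the same libraries and are not independent. Replicate 3 was also the lowest wild-type library for *Itga8*, *Itgb1*, *Itga3*, *Frem1*, *Frem2* and *Grip1*, though not for *Egfl6* and *Npnt*.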

How the results depend on the processing

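The direction of *Egfl6* held under all 18 alternatives against controls (log2 difference −2.06 to −0.53) and all 19 against wild-type kidneys (−1.57 to −1.34). Filter, eBayes settings and the fit of all 10 libraries cannot change this difference, nor can the replicate block against controls. Those alternatives therefore held by construction. With embryo sex as a covariate, *Ntn1*SPKO libraries are compared with a single library of the other group, also in the counts below. Counts of called genes were less stable. Between *Ntn1*SPKO and control kidneys, 8 genes were called, and the count was 21 with no filter on low values, 0 with all 10 libraries in one fit, 4 with the replicate block, 4 with embryo sex as a covariate and 334 at an unadjusted p under 0.1. It ran from 3 (without *Ntn1*SPKO replicate 2) to 78 (without control replicate 2) on leaving out single libraries, where members called ran from 0 to 1. At the unadjusted threshold 1 member and 1 gene of the other lists passed. Against wild-type kidneys, 7 genes were called, and the count was 2 with a pseudocount of 1, 18 with no filter, 12 with no intensity trend, 0 with all 10 libraries in one fit, 187 with embryo sex and 201 at the unadjusted threshold. It ran from 1 (without *Ntn1*SPKO replicate 2) to 20 (without wild-type replicate 4) without single libraries. Members called were 0 with all 10 libraries in one fit and 0 to 1 without single libraries, and 1 gene of the other lists passed the unadjusted threshold. Between control and wild-type kidneys, 1 gene was called, and the count was 2 with a pseudocount of 1 or 0.01, 9 with no filter, 4 with no intensity trend, 0 with all 10 libraries in one fit and 207 at the unadjusted threshold, where 1 gene of the other lists passed, and 3 to 20 without single libraries. The causes were not tested. Same-numbered libraries had deviations that correlated at −0.04 to 0.08, and the replicate block changed no call of a member. Whether replicate numbers pair the libraries cannot be told from this, because differently numbered libraries were not read beside them. The FPKM hold no counts, the depth is rough, and groups of 3 and 4 libraries limit what can be called.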
